A study of Mus musculus with 16 samples.

Results

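Reporter-high Sca1+ fibroblasts of the mouse colon were compared with reporter-dim Sca1+ fibroblasts from the same animals. Of the 16 arrays of the series, 8 entered the comparison: the 4 whose titles name the high ZsGreen gate and the 4 whose titles name the dim gate, with mice 1 to 4 in each, paired by the mouse number. All 28898 probe sets that name 1 gene were used, out of 45141, and they represented 17097 genes. All cells came from C57BL/6 mice of the genotype Gli1CreERT2-ZsGreen, given 1 mg tamoxifen by intraperitoneal injection on 5 consecutive days and killed on day 6. For all these mice the labels also give 5 days after tamoxifen. In such mice a tamoxifen-dependent recombinase is made from the Gli1 locus, and cells in which it acts carry a lasting ZsGreen label, so brightness at the sort need not follow Gli1 activity at that time. Reporter-high and reporter-dim cells shared the gate Epcam-CD45-CD31-gp38+ and Sca1+, and the gates differed in ZsGreen brightness. The other 8 arrays hold Sca1+ and Sca1- reporter-negative cells, labelled with the same mouse numbers. They entered the estimate of the spread and are otherwise cited only for levels. The labels used here give neither the age nor the sex of the mice, nor the brightness limits of the gates.

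Gli1 is a transcription factor of the Hedgehog pathway and also one of its target genes. Hedgehog ligands are made by the gut epithelium, bind the receptor Ptch1 on mesenchymal cells and so release Smo, which leads to activation of the Gli factors. Ptch1 and Hhip, a surface protein that binds Hedgehog ligands, are induced by the pathway and limit it. Mesenchymal cells that respond to Hedgehog in the gut include smooth muscle cells, subepithelial myofibroblasts and fibroblasts that supply the epithelium with Wnt, R-spondin and BMP signals.

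Values are array signals, recovered from the deposited scores, or log2 differences of reporter-high minus reporter-dim with their SE. Differences were tested with limma in a fit of all 16 arrays that gave each population its own mean and entered no block. Because both populations came from the same 4 mice, the comparison was repeated on the 8 arrays with mouse as a block, called the paired fit below. A fit of all 16 arrays with mouse as a block is cited as the block on 16 arrays. A gene passed where its p, adjusted over all 17097 genes by Benjamini-Hochberg, was under 0.05. Without a block, the p-values rest on the spread within all 4 populations, including the 8 reporter-negative arrays. In the paired fit they rest on how the differences varied between the 4 mice. The number of arrays limits the precision.

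The 8 arrays had similar median signals, 661 to 686. The highest of 23 nonspecific control probe sets read 234 to 327 on reporter-high arrays and 292 to 396 on reporter-dim arrays. The 3' to 5' signal ratio of Actb was 1.24 ± 0.03 on reporter-high arrays and 1.15 ± 0.07 on reporter-dim arrays (SD, n = 4 each). Signals of the sex-linked genes Xist and Eif2s3y matched between the reporter-high and reporter-dim array of each of the 4 mice, but not between these and the reporter-negative arrays of mouse 2. On reporter-high arrays Xist read 476 for mouse 1, 18153 for mouse 3 and 18609 for mouse 4. For mouse 2, Xist read 487 and 424 on reporter-high and reporter-dim arrays, against 18116 and 19209 on Sca1+ and Sca1- reporter-negative arrays. Those 4 arrays therefore did not all come from the same animal. The paired fit uses no reporter-negative array.

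Gli1 mRNA itself overlapped between the 2 gates. Gli1 read 2453, 2978, 2759 and 2255 in reporter-high cells of mice 1 to 4, against 2705, 2183, 2442 and 1961 in reporter-dim cells. The ranges overlapped, and mouse 1 had more signal in its reporter-dim cells (0.17 ± 0.21, adjusted p = 0.73, and 0.357 in the paired fit). Pdpn, which encodes the sorting antigen gp38, differed by 0.19 ± 0.26 (adjusted p = 0.759), and Ptprc, which encodes CD45, by -0.05 ± 0.31 (adjusted p = 0.964). Epcam and Pecam1 encode antigens that the gate excluded. Epcam fell in reporter-high cells, and its signals stand with the epithelial genes below. Pecam1, which encodes CD31, read 790 to 1111 in reporter-high cells and 1302 to 3345 in reporter-dim cells, without overlap (-1.07 ± 0.32, adjusted p = 0.0998, and 0.00421 in the paired fit).

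Among the 17097 genes, 242 passed (1.42%), 83 of them higher in reporter-high cells (0.485%) and 159 lower (0.93%). The falls were the larger changes: 123 genes fell by more than 2-fold, whereas 11 rose by more than 2-fold. All 242 differed in the same direction in all 4 mice. In the paired fit 2183 genes passed (12.8%), 1167 higher (6.83%) and 1016 lower (5.94%), among them 240 of the 242. With the block on 16 arrays 1280 passed (7.49%), 482 higher (2.82%) and 798 lower (4.67%). The unpaired count rested on single arrays: leaving out a reporter-high array gave 9 (mouse 1), 10 (mouse 2), 523 (mouse 3) or 69 (mouse 4), and leaving out a reporter-dim array gave 0 for mouse 3 (2160 at an unadjusted p under 0.05) and 2 for mouse 4. The paired count ran from 1056 to 1785 when a mouse was left out. Of the 38 genes named below that passed in the unpaired fit, 0 passed with limma without mouse 2, without mouse 4 or once mouse 3 or mouse 4 lacked its reporter-dim array, whereas all 38 passed in the paired fit and 36 to 38 in it when a mouse was left out. Scaling to the hybridization controls moved every difference up alike, to a median over all genes of 0.33, and 96.5% of the passing genes were then higher, against 34.3% otherwise. Directions below are therefore relative to the median gene, which differed by 0.01.

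The largest rise in reporter-high cells was that of the smooth muscle actin Actg2, and 6 of the 12 largest rises stand on the smooth muscle lists described below. The 12 largest rises by the naming rule were Actg2, Speer4b, Itga8, Hhip, Actc1, Kcnmb1, Ctxn1, Pdgfc, Cnn1, Myl9, Speer8-ps1 and Speer4cos, with log2 differences from 2.27 to 0.92. The 12 largest falls were Hao2, Perp, Cldn23, Aqp4, Pof1b, Rnf128, Gsdmc2, Mal2, Sult1d1, Fabp2, Ugt2b34 and Mpzl2, from -2.61 to -2.09. Among these, Fabp2 encodes the fatty acid binding protein of enterocytes, Cldn23 a claudin, Perp a desmosome protein and Aqp4 a water channel, and none is on the epithelial list.

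**Figure D1:**
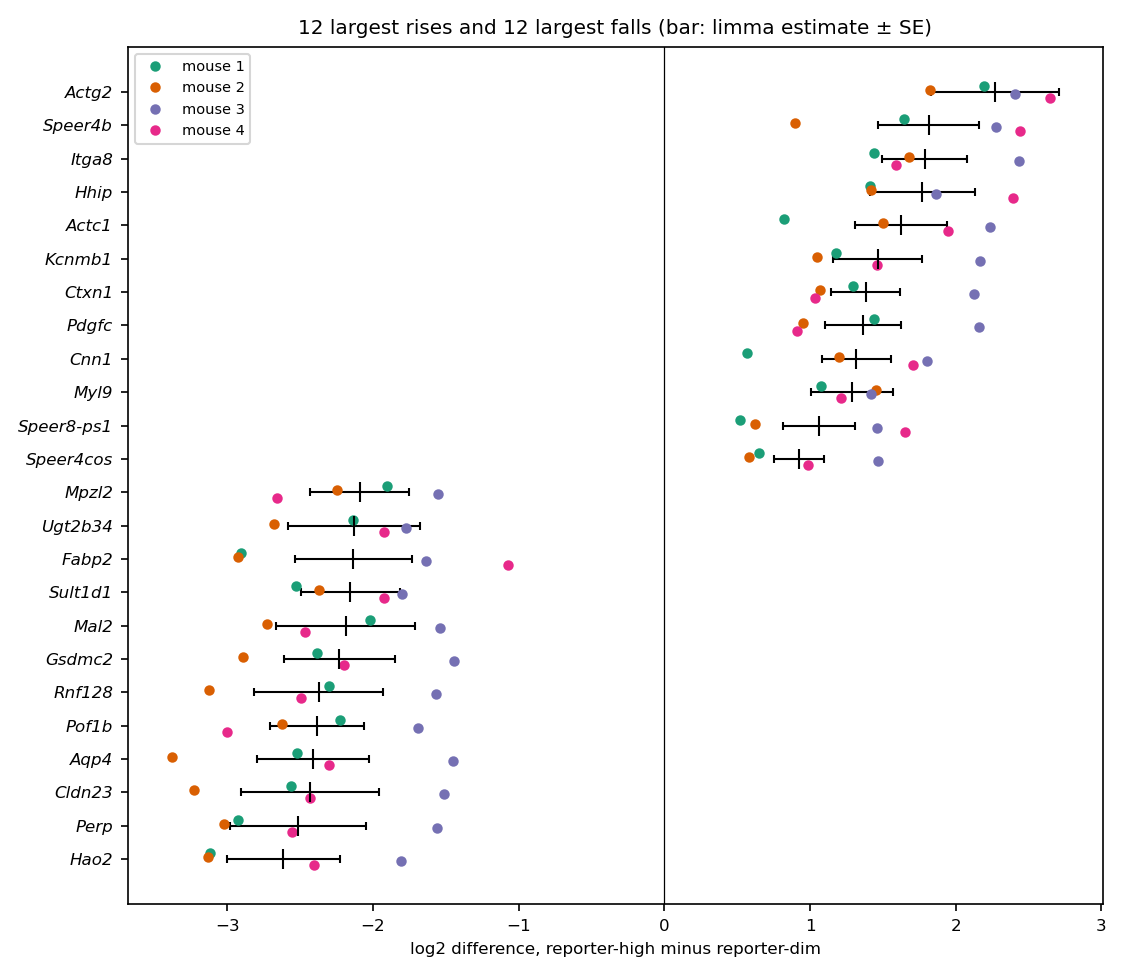
Log2 difference of reporter-high minus reporter-dim (horizontal axis) for the 12 largest rises and 12 largest falls (rows). Coloured points are the 4 mice and black bars the limma estimate with its SE. The naming rule required the same direction in all 4 mice, which all 242 passing genes met. That every point of the 12 rises lies right of 0, and of the 12 falls left of it, therefore follows from the rule. Mouse 3 has the smallest fall for 11 of the 12 falling genes.

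Actin and myosin genes of the contractile apparatus were higher in reporter-high cells. Of 10 measured, 3 rose (Actg2, Actc1 and Myl9) and 7 did not pass, and in the paired fit 9 rose (8 with the block on 16 arrays), with a list median of 1.14 against 0.01 for all genes. In 9 of the 10, all reporter-high arrays lay above all reporter-dim arrays, against 7.35% of all genes. On the same arrays epithelial genes were lower, with a list mean log2 signal of 10.91 to 12.75 in reporter-high cells and 12.74 to 13.75 in reporter-dim cells, and these contractile differences are given below also with that mean as a covariate. In RNA from sorted populations, fewer cells of a type and less RNA per cell cannot be told apart.

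Actg2, the actin typical of visceral smooth muscle, read 5310, 7762, 12423 and 8230 in reporter-high cells of mice 1 to 4, against 1159, 2198, 2338 and 1313 in reporter-dim cells (2.27 ± 0.44, adjusted p = 0.0239). The lowest reporter-high array was more than 2-fold above the highest reporter-dim array. Actc1, the cardiac actin that embryonic and some smooth muscle also express, read 419, 706, 1550 and 892 in reporter-high cells, against 237, 250, 330 and 231 in reporter-dim cells. The reporter-dim signals were all at array background, meaning at or below the highest nonspecific control of their array, so reporter-high cells had at least 2.43-fold more (adjusted p = 0.0239). Myl9, the regulatory light chain that is phosphorylated when smooth muscle contracts, read 13751, 15806, 19270 and 15487 in reporter-high cells, against 6534, 5773, 7212 and 6685 in reporter-dim cells (1.29 ± 0.28, adjusted p = 0.0381). None of these 3 genes overlapped between the populations.

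Acta2, the alpha smooth muscle actin that marks myofibroblasts, read 26343, 31626, 39633 and 28207 in reporter-high cells, against 12875, 11877, 13922 and 13304 in reporter-dim cells. Myh11, the smooth muscle myosin heavy chain, read 29150, 31806, 48343 and 34627 in reporter-high cells, against 13669, 14795, 16725 and 16524 in reporter-dim cells. Neither gene overlapped between populations, and mouse 3 was highest among the reporter-high arrays for both. Their differences, 1.26 ± 0.31 for Acta2 and 1.20 ± 0.32 for Myh11, missed the threshold without the block (adjusted p = 0.0575 and 0.0698) and passed in the paired fit (adjusted p = 0.000447 and 0.000449). The second probe set of Myh11 differed by 0.36. Tropomyosin Tpm2 (1.09), the light chain kinase Mylk (0.93), Tpm1 (0.51) and the nonmuscle heavy chain Myh10 (0.48) passed in the paired fit only, and the light chain Myl6 (0.17) in neither. Actin genes are nearly identical in their coding sequence, and whether probe sets of one read another was not tested.

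Of 7 measured regulators of the thin filament, 1 rose and 6 did not pass, and 5 rose in the paired fit (2 with the block on 16 arrays, median 0.41). Cnn1, calponin, which binds actin in differentiated smooth muscle, read 1390, 1976, 2997 and 2485 in reporter-high cells, against 937, 861, 858 and 763 in reporter-dim cells (1.32 ± 0.23, adjusted p = 0.0208). The reporter-dim arrays were nearly level and all below the reporter-high ones. Cnn3 (0.49), the leiomodin Lmod1 (0.43), Cnn2 (0.41) and caldesmon Cald1 (0.40) passed in the paired fit only.

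Of 26 measured genes for the cytoskeleton, attachment plaques and adhesion of smooth muscle, 2 rose and 24 did not pass, and 16 rose in the paired fit (8 with the block on 16 arrays, median 0.43). Itga8, the integrin subunit that pairs with beta 1 and binds nephronectin, read 700, 1125, 1624 and 890 in reporter-high cells, against 258, 351, 300 and 296 in reporter-dim cells (1.79 ± 0.29, adjusted p = 0.0163). The reporter-dim signals of mice 1 and 3 were at or below the highest nonspecific control of their arrays, so the difference there is limited by array background. Its second probe set differed by 0.78. Jph2, junctophilin, which ties the sarcoplasmic reticulum to the surface membrane, read 5090, 5277, 6085 and 5867 in reporter-high cells, against 3619, 3159, 3291 and 3356 in reporter-dim cells (0.73 ± 0.15, adjusted p = 0.0259, with a second probe set at 0.04). Both genes were separated between populations on every array. Filamin Flna (0.72), Pgm5 (0.71), synemin Synm (0.62), Csrp1 (0.58) and vinculin Vcl (0.51) passed in the paired fit only. Desmin, the intermediate filament of mature muscle, was not among them: Des read 476 to 531 in reporter-high cells and 426 to 542 in reporter-dim cells (0.04 ± 0.12, adjusted p = 0.914).

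Among 19 channels and receptors of smooth muscle, 1 rose and 18 did not pass, and 8 rose in the paired fit (2 with the block on 16 arrays, median 0.22). Kcnmb1, the beta subunit that tunes the calcium-activated potassium channel of smooth muscle, read 1127, 1403, 2776 and 1277 in reporter-high cells, against 498, 679, 618 and 464 in reporter-dim cells (1.46 ± 0.31, adjusted p = 0.0328). Mouse 3 stood highest, its second probe set differed by 0.26, and the populations did not overlap. The channel's pore subunit Kcnma1 (0.65), the calcium channel subunits Cacna1h (0.86) and Cacna1c (0.60), the endothelin receptor Ednrb (1.02) and the cGMP-dependent kinase Prkg1 (0.42) passed in the paired fit only. Of 15 transcription factors of smooth muscle and gut mesenchyme, 0 passed with limma in the unpaired fit (3 at an unadjusted p under 0.05), while 4 were higher and 1 lower in the paired fit. With limma and the block on 16 arrays 0 were higher (4 at an unadjusted p under 0.05) and the same 1 was lower. The 4 were Foxf2 (0.54), Meis1 (0.47), Foxf1 (0.39) and Nkx2-3 (0.37), and the 1 was Gata6 (-0.89, with a second probe set at -0.29). Gata6 read 794 to 1541 in reporter-high cells and 1441 to 2164 in reporter-dim cells. In Sca1+ and Sca1- reporter-negative cells it read 3326 to 5214 and 2251 to 4698. The mean of the epithelial list was also lowest in reporter-high cells, and the part of epithelial signal in the fall of Gata6 was not tested. Myocd, the coactivator of serum response factor in smooth muscle, differed by 0.31 and Srf itself by 0.14, neither past the threshold in either fit.

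Serum response factor acts at the CArG box, a sequence of 10 bases found near many contractile genes. RefSeq promoters of GRCm38.p6, running from 250 bases before to 50 after the transcription start, were searched for it on both strands. Of the 12 largest rises, 9 had an entry and 3 held a CArG box: Actc1, Myl9 and Pdgfc. Their promoters are shown, 5′ to 3′ on the gene's strand, because they tie the match to genes that rose, with the box in capitals.
Actc1 chr2:114052826-114053125 (minus strand): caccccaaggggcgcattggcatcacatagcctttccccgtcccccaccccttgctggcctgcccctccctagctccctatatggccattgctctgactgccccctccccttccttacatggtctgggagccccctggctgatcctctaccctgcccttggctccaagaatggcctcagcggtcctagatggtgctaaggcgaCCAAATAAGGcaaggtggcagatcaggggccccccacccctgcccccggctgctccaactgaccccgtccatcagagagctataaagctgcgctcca
Myl9 chr2:156775214-156775513 (plus strand): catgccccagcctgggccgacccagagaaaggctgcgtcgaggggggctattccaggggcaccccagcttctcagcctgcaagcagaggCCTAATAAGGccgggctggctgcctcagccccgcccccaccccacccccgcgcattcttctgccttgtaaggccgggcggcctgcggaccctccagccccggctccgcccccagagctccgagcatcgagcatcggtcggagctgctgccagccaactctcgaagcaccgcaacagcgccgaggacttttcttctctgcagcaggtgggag
Pdgfc chr3:81036166-81036465 (plus strand): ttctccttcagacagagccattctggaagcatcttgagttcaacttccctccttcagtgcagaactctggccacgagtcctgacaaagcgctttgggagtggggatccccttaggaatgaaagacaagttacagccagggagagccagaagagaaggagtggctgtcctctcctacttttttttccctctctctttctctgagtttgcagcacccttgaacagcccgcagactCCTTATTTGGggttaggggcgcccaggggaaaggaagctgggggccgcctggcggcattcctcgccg
The box begins 47 bases before the transcription start in Actc1, 161 in Myl9 and 17 in Pdgfc. Of the 12 largest falls, 6 had an entry and 1 of them held a box (16.7%, against 33.3% of the rises with an entry). It was present in 3 of the 66 genes with an entry that rose (4.55%), in 2 of the 115 that fell (1.74%) and in 225 of 13605 measured genes (1.65%). Of 53 genes with an entry in the smooth muscle lists other than the transcription factors, 7 held it (13.2%). A match describes the letters in the window and is not evidence of binding, and promoters without a match may have boxes elsewhere.

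Among 13 measured Hedgehog targets, 1 rose and 12 did not pass, and 5 rose in the paired fit (1 with the block on 16 arrays, median 0.37). With the epithelial covariate described below, the median of these targets was 0.15 on 8 arrays and -0.22 on 16. Hhip, the surface antagonist, read 10852, 14642, 18425 and 18596 in reporter-high cells, against 4080, 5473, 5071 and 3536 in reporter-dim cells (1.77 ± 0.36, adjusted p = 0.0277), and its 4 probe sets differed by 1.67 to 2.04. Every reporter-high array was above every reporter-dim array, in contrast to Gli1. Ptch1, the receptor, read 35470, 35729, 29213 and 23242 in reporter-high cells, against 22764, 26766, 16395 and 26654 in reporter-dim cells (0.42 ± 0.42, adjusted p = 0.667, and 0.13 in the paired fit). The arrays of mouse 4 ran the other way. Tbx2 (0.63), Foxf2 (0.54), Foxf1 (0.39) and Nkx2-3 (0.37) passed in the paired fit only.

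Of 20 genes that transmit the Hedgehog signal, 1 rose and 19 did not pass, and in the paired fit 6 rose and 1 fell (5 and 1 with the block on 16 arrays, median 0.21). With the epithelial covariate the median of these genes was 0.04 on 8 arrays and -0.02 on 16. Sufu, the inhibitor that holds Gli proteins in the cytoplasm, read 1020, 1027, 995 and 928 in reporter-high cells, against 721, 625, 705 and 689 in reporter-dim cells (0.54 ± 0.08, adjusted p = 0.0163). The difference is small beside those of the contractile genes but larger than the spread in both populations, and its 3 probe sets ran from -0.04 to 0.54. The cilium proteins Evc2 (0.75) and Evc (0.55), Gli2 (0.59), Gli3 (0.37) and the coreceptor Gas1 (0.37) passed in the paired fit only. Ihh, the ligand that the colon epithelium makes, was lower in the paired fit (-0.68).

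Among 32 growth factors 1 rose and 1 fell, and in the paired fit 5 rose and 1 fell (2 and 1 with the block on 16 arrays, median 0.13). Pdgfc, a ligand of the PDGF receptor alpha, read 1083, 960, 1872 and 756 in reporter-high cells, against 399, 496, 420 and 402 in reporter-dim cells (1.37 ± 0.26, adjusted p = 0.0232), and its second probe set differed by 1.84. The lowest reporter-high array, of mouse 4, was above all reporter-dim arrays. Hbegf, an EGF-family ligand, read 2123, 2223, 7909 and 4187 in reporter-high cells, against 7103, 10769, 15980 and 16538 in reporter-dim cells (-1.75 ± 0.37, adjusted p = 0.0333). It was lower in the reporter-high array of each mouse, but the populations overlapped through mouse 3. Like the epithelial list below, Hbegf averaged more in reporter-negative cells (20710 in Sca1+ and 21487 in Sca1-) than in reporter-dim cells. The part of epithelial signal in the fall of Hbegf was not tested. Vegfc (0.67), Nrg1 (0.66), Fgf7 (0.64) and Tgfb3 (0.51) passed in the paired fit only.

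Of the BMP and Wnt lists 0 genes passed with limma in the unpaired fit, where an unadjusted p under 0.05 was reached by 2 BMP and GDF ligands, 3 BMP antagonists, 1 Wnt ligand or R-spondin and 0 secreted Wnt inhibitors. In the paired fit, 3 of 10 BMP and GDF ligands were higher, Gdf10 (0.88), Bmp7 (0.76) and Bmp6 (0.40), as were 3 of 13 BMP antagonists, Nbl1 (0.64), Fstl3 (0.43) and Chrdl1 (0.42). Of 23 Wnt ligands and R-spondins 3 were higher in the paired fit, Wnt5a (0.57), Wnt5b (0.47) and Wnt9a (0.46), and of 12 secreted Wnt inhibitors 1, Dkk3 (0.39). The paired fit called 6.83% of all genes higher and 5.94% lower, so these Wnt members are not read as a trait of their lists. With limma and the block on 16 arrays, 1 BMP or GDF ligand, Gdf10, passed, and 0 BMP antagonists (4 at an unadjusted p under 0.05), 0 Wnt ligands and R-spondins (2) and 0 Wnt inhibitors (1) did. Bmp7 read 4754, 5575, 3897 and 3684 in reporter-high cells, against 2356, 2583, 2726 and 2753 in reporter-dim cells. The R-spondin Rspo3 and the BMP antagonist Grem1, both signals to the crypt base, differed by 0.15 and 0.22 and passed in neither fit. Among 19 semaphorins and guidance cues, 0 passed with limma in the unpaired fit (7 at an unadjusted p under 0.05), and 5 were higher and 3 lower in the paired fit (3 and 2 with the block on 16 arrays). Sema3a, a secreted repellent of axons, read 6520, 8414, 7977 and 7075 in reporter-high cells, against 3153, 4066, 2794 and 2974 in reporter-dim cells (1.22 ± 0.33, adjusted p = 0.0789, and 0.000447 in the paired fit). All its reporter-high arrays were above its reporter-dim arrays.

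Of 19 genes of PDGFRA-high subepithelial fibroblasts, 1 rose (Hhip), and 10 rose in the paired fit but 1 with the block on 16 arrays (median 0.44, and 0.29 and 0.02 with the epithelial covariate described below on 8 and on 16 arrays). The 10 include Ednrb, Bmp7, Sox6 (0.67), Nrg1 and Tgfbi (0.61). Pdgfra itself differed by 0.39 ± 0.30 (adjusted p = 0.55, and 0.0972 in the paired fit). Of 19 genes of adventitial CD34+ fibroblasts, 0 passed with limma in the unpaired fit (1 at an unadjusted p under 0.05), and 3 were higher and 1 lower in the paired fit (median 0.22), none of which passed with limma and the block on 16 arrays (3 members at an unadjusted p under 0.05), with Cd34 at 0.21 and Dpp4 at -0.68. The second probe set of Dpp4 differed by -0.15. Since the paired fit called 6.83% of all genes higher, the 3 adventitial members are not read as a trait of that list. Of 12 pan-fibroblast genes 0 passed with limma in either fit (0 at an unadjusted p under 0.05 in the unpaired one), and their median was 0.08. Their mean log2 signal ran from 14.56 to 14.73 on reporter-high arrays and from 14.45 to 14.71 on reporter-dim arrays.

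Of 29 fibrillar collagen and elastic fibre genes 0 passed with limma in the unpaired fit (0 also at an unadjusted p under 0.05) and 9 were higher in the paired fit (median 0.21), led by fibrillin Fbn2 (0.54) and Emilin1 (0.51), with Col1a1 at -0.08 and Col3a1 at -0.15. With limma and the block on 16 arrays 0 passed (6 at an unadjusted p under 0.05), and with the epithelial covariate the median was -0.03 on 8 arrays and -0.32 on 16. Of 21 basement membrane genes 1 fell, and in the paired fit 6 were higher and 2 lower (2 and 2 with the block on 16 arrays; median 0.24, and 0.04 and -0.23 with the covariate on 8 and on 16 arrays). The 2 were Lama3 (-1.18 ± 0.25, adjusted p = 0.0347) and Lamb3 (-1.47), chains of the laminin found under epithelia. Lama3 read 311 to 459 in reporter-high cells and 648 to 1024 in reporter-dim cells, and its second probe set differed by -0.16. Of 22 matrix proteases and their inhibitors 0 passed with limma in the unpaired fit (1 at an unadjusted p under 0.05) and 3 were higher in the paired fit, Mmp2 (0.36), Adamts12 (0.34) and Mmp14 (0.27). That fit called 6.83% of all genes higher, so these few proteases are not read as a trait of the list. With limma and the block on 16 arrays 0 of them passed (1 at an unadjusted p under 0.05), and the list's median, 0.22, was -0.07 and -0.27 with the covariate on 8 and on 16 arrays. The part of epithelial signal in these differences was not tested further.

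**Figure D2:**
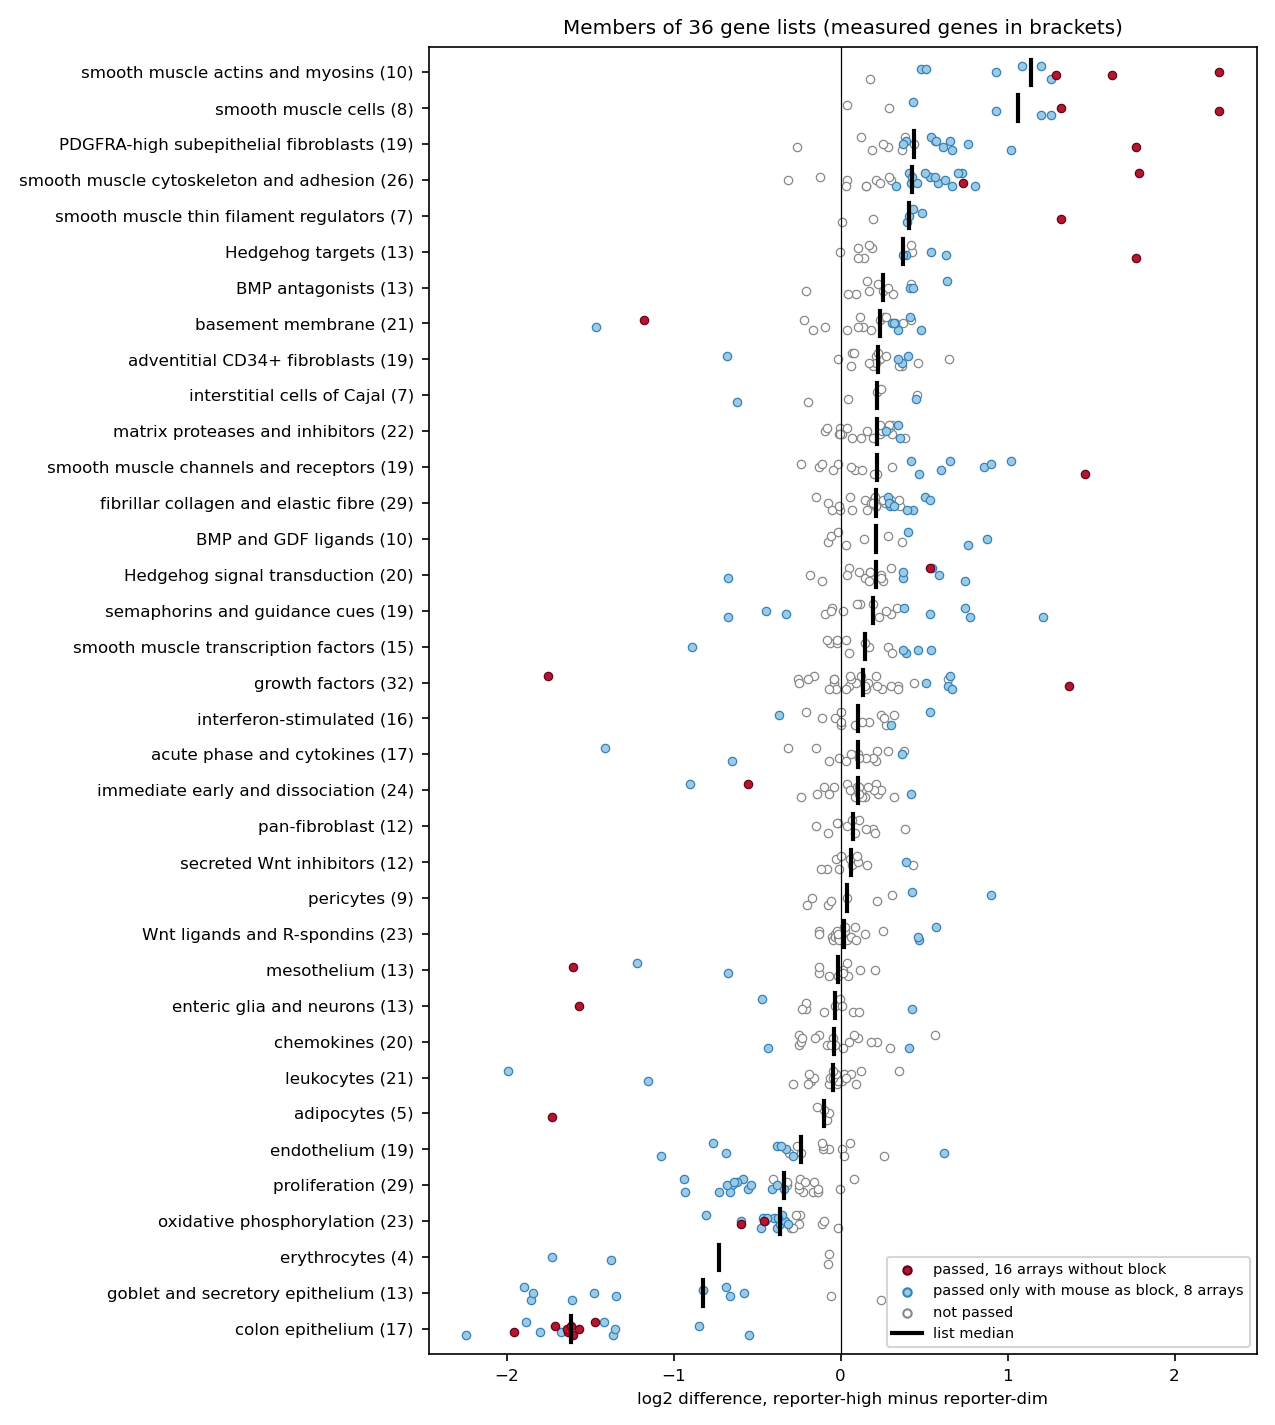
Log2 difference of reporter-high minus reporter-dim (horizontal axis) for the measured members of 36 gene lists (rows, ordered by their median, drawn as a bar). Dark points passed in the unpaired fit, light blue points in the paired fit only and open points in neither. The list of actins and myosins lies at the top with a median of 1.14, next to that of smooth muscle cells (1.06). The other smooth muscle lists, with medians from 0.14 to 0.43, lie among lists of other kinds. The colon epithelium list lies at the bottom with -1.61.

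Epithelial genes were lower in reporter-high cells. Of 17 measured genes of colon epithelium 8 fell and 9 did not pass, and all 17 fell in the paired fit (median -1.61). In 7 of the 17, all reporter-high arrays lay below all reporter-dim arrays, against 4.46% of all genes. Epcam read 2010, 1698, 6869 and 3312 in reporter-high cells, against 6249, 7773, 13478 and 13623 in reporter-dim cells (-1.71 ± 0.39, adjusted p = 0.0415). It was lower in the reporter-high array of every mouse, and mouse 3 had the highest reporter-high signal, so the populations overlapped. Neither population was free of Epcam, although the gate excluded cells that carry its protein. Cdh1, E-cadherin (-1.96), Cldn7, a tight junction protein (-1.63), and Elf3, an epithelial transcription factor (-1.64), fell as well. Of 13 goblet and secretory genes 0 passed with limma in the unpaired fit (6 at an unadjusted p under 0.05) and 10 were lower in the paired fit (median -0.82), among them Clca1 (-1.90) and Agr2 (-1.86). The second probe set of Clca1 differed by -0.30.

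The mean log2 signal of the epithelial list was 11.11, 10.91, 12.75 and 11.83 on the reporter-high arrays of mice 1 to 4, against 12.74, 12.86, 13.75 and 13.44 on the reporter-dim arrays. Mouse 3 was highest and mice 1 and 2 were lowest in both populations. Hao2, a peroxisomal hydroxyacid oxidase, read 591, 752, 2517 and 1891 in reporter-high cells, against 5120, 6591, 8794 and 9998 in reporter-dim cells (-2.61 ± 0.39, adjusted p = 0.014). Fabp2, the intestinal fatty acid binding protein, read 1362, 816, 4179 and 2973 in reporter-high cells, against 10208, 6201, 12989 and 6252 in reporter-dim cells (-2.14 ± 0.40, adjusted p = 0.0228). Neither gene overlapped between the populations.

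Entering the mean epithelial signal as a covariate on the 8 arrays, an alternative chosen after the data were seen, left 24 genes past the threshold, 22 of them higher. Among the 24 were 11 of the 77 measured genes of the smooth muscle lists: Actg2 (3.02), Actc1, Itga8 (2.29), Cnn1 (1.82), Myh11 (1.73), Myl9 (1.60), Acta2 (1.59), Mylk (1.25), Tpm2 (1.11), Cacna1c (0.90) and Jph2 (0.87). No value is given for Actc1, since its reporter-dim signals were at array background. Hhip passed as well (2.13). With the same covariate on all 16 arrays 0 genes passed with limma (1477 at an unadjusted p under 0.05). Neither fit with the covariate entered mouse as a block, so the covariate follows differences between mice as well as between populations. Among reporter-high arrays, mouse 3 was highest for the epithelial list and also for Actg2, Acta2 and Myh11. Larger differences with the covariate are therefore not read as differences freed of epithelial signal. The median of the actins and myosins, 1.14, was 1.42 with the covariate on 8 arrays and 0.86 on 16. Those of the other smooth muscle lists were smaller with it: 0.18 and -0.007 for thin filament regulators, 0.33 and 0.10 for cytoskeleton and adhesion, 0.02 and -0.12 for channels and receptors, and 0.02 and -0.07 for transcription factors, whose median was 0.14.

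**Figure D3:**
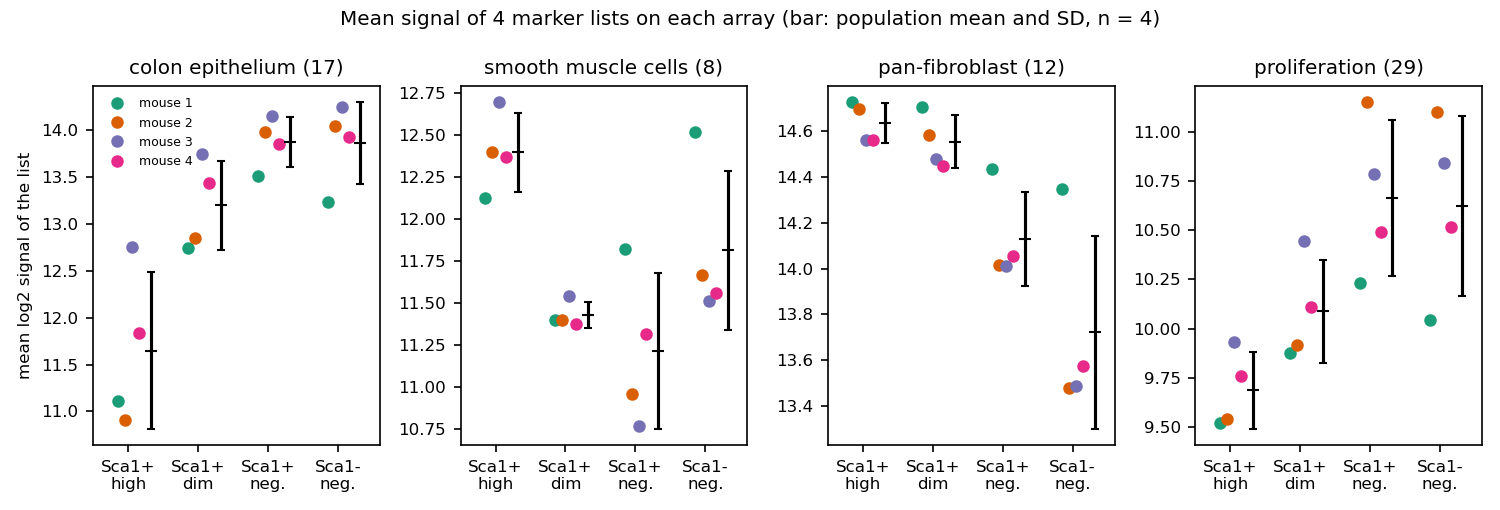
Mean log2 signal (vertical axes) of 4 marker lists on each array, by population (horizontal axis, number of measured genes in brackets), with coloured points for mice and bars for mean and SD (n = 4). On average the epithelial list is lowest and the smooth muscle list highest in reporter-high cells; every reporter-high smooth muscle mean lies above every reporter-dim one, while the pan-fibroblast means of both populations overlap.

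Contractile genes were not restricted to reporter-high cells. Actg2 averaged 8431 ± 2953 in reporter-high cells, 1752 ± 602 in reporter-dim cells, 4346 ± 2551 in the Sca1- cells and 1314 ± 895 in Sca1+ cells without reporter (SD, n = 4 each). Myh11 averaged 35982 ± 8539 in reporter-high cells, 15428 ± 1458 in reporter-dim cells, 28056 ± 13724 in the Sca1- cells and 12438 ± 6275 in Sca1+ cells without reporter. Hhip averaged 15629 ± 3670 in reporter-high cells, 4540 ± 889 in reporter-dim cells, 6274 ± 2857 in the Sca1- cells and 2052 ± 1316 in Sca1+ cells without reporter. For all 3 genes the Sca1- mean lay between those of reporter-high and reporter-dim cells, with a wide spread, and the mean of Sca1+ cells without reporter was the lowest of the 4.

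The lists for mitochondrial respiration and cell division had medians below 0. Of 23 genes of oxidative phosphorylation 2 fell and 21 did not pass, and 15 fell in the paired fit (median -0.36). Uqcrc2, a core protein of respiratory complex III, read 8493, 9378, 9787 and 9033 in reporter-high cells, against 12132, 13594, 16266 and 13604 in reporter-dim cells (-0.59 ± 0.09, adjusted p = 0.014). Cox7a2, a subunit of cytochrome oxidase, read 27329 to 29975 in reporter-high cells and 33831 to 47132 in reporter-dim cells (-0.46 ± 0.10, adjusted p = 0.0403). Both genes were separated between the populations.

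Of 29 proliferation genes 0 passed with limma in the unpaired fit (5 at an unadjusted p under 0.05), and 14 were lower in the paired fit but 1, Mki67, with the block on 16 arrays (median -0.34). Mki67, which encodes the division marker Ki-67, read 702, 789, 1583 and 1175 in reporter-high cells, against 1550, 1479, 2696 and 2240 in reporter-dim cells (-0.94 ± 0.35, adjusted p = 0.178, and 0.000627 in the paired fit). Each mouse had less Mki67 signal in its reporter-high cells, with mouse 3 highest in both populations. With the epithelial covariate on the 8 arrays the median of the proliferation list was 0.07 and that of oxidative phosphorylation -0.12, and on 16 arrays they were 0.27 and -0.02. Scaled to the hybridization controls the medians were -0.03 and -0.05, below the shift of all genes.

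Of 19 endothelial genes 0 passed with limma in the unpaired fit (3 at an unadjusted p under 0.05), and 7 were lower and 1 higher in the paired fit (median -0.24). That fit called 5.94% of all genes lower and 6.83% higher. Scaled to the hybridization controls the endothelial median was 0.08, below the 0.33 of all genes. With limma and the block on 16 arrays 0 passed (2 at an unadjusted p under 0.05). Named members were Cldn5 at -0.68 and the lymphatic receptor Lyve1 at -0.77. Of 21 leukocyte genes 0 passed with limma in the unpaired fit (2 at an unadjusted p under 0.05), and 2 were lower in the paired fit. Those were Jchain, the joining chain of secreted antibodies (-1.99), and lysozyme Lyz2 (-1.15), while Cd3e, Cd3g, Itgam, Cpa3 and Mcpt1 were at array background in both populations. With 5.94% of all genes lower in the paired fit, these 2 leukocyte genes are not read as a trait of their list. Of 4 erythrocyte genes 0 passed with limma in the unpaired fit (2 at an unadjusted p under 0.05), and the globins Hbb-b2 (-1.73) and Hba-a1 (-1.38) were lower in the paired fit. The 3 probe sets of Hbb-b2 ran from -1.73 to -0.13, and the 3 of Hba-a1 from -1.75 to -0.24.

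Of other cell types, the adipocyte, glia and neuron, and mesothelial lists each had 1 member past the threshold in the unpaired fit. In the paired fit 1 of 5 adipocyte genes and 3 of 13 mesothelial genes were lower. Of 13 genes of glia and neurons, 1 was higher and 2 were lower there. Fabp4, a fatty acid binding protein of adipocytes and capillary endothelium, fell, with 500 to 770 in reporter-high cells and 1434 to 3223 in reporter-dim cells (-1.73 ± 0.31, adjusted p = 0.021), while Adipoq and Lep were at array background. The 3 probe sets of Fabp4 ran from -1.73 to -0.05. Erbb3, on the list of glia and neurons and also made by epithelium, fell (-1.57 ± 0.29, adjusted p = 0.0228), while S100b was at array background and Sox10 differed by 0.00. Krt19, on the mesothelial and the epithelial list, fell (-1.60 ± 0.34, adjusted p = 0.0338), while Msln was at array background. Of 9 pericyte genes 0 passed with limma in the unpaired fit (0 also at an unadjusted p under 0.05), and Kcnj8 (0.90) and Mcam (0.43) were higher in the paired fit, and 0 passed with limma and the block on 16 arrays (1 at an unadjusted p under 0.05). Of 7 genes of interstitial cells of Cajal 0 passed with limma in the unpaired fit (2 at an unadjusted p under 0.05), with Kit, the receptor that defines them, at -0.19 and Ano1 at -0.62. Kit was at array background on 3 reporter-high and 3 reporter-dim arrays. In the paired fit, and also with the block on 16 arrays, 1 of the 7 was higher and 1, Ano1, was lower. The part of such cells in the differences was not tested. Beside 6.83% of all genes higher and 5.94% lower in the paired fit, these few members are not read as a trait of their lists.

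Of 24 immediate early and dissociation genes 1 fell and 23 did not pass. In the paired fit 1 was higher, Hspa1b (0.42), and 2 were lower, Klf6 and Fosl1 (-0.90). Klf6 read 17299 to 22804 in reporter-high cells and 24198 to 32986 in reporter-dim cells (-0.56 ± 0.11, adjusted p = 0.0275), while Fos (0.10), Jun (0.21) and Egr1 (0.04) passed in neither fit. Of 17 acute phase and cytokine genes, 20 chemokines and 16 interferon-stimulated genes 0 passed with limma in the unpaired fit (2, 4 and 2 at an unadjusted p under 0.05). In the paired fit the serum amyloid genes Saa1 (-1.41) and Saa3 (-0.65), the chemokine Ccl28 (-0.43) and the interferon-stimulated Rsad2 (-0.37) were lower, and Cxcl1 (0.41), Ifit2 (0.54), Has1 (0.37) and Gbp2 (0.30) were higher. Of these 8 only Ccl28 was among the genes that passed with the block on 16 arrays. The paired fit called 6.83% of all genes higher and 5.94% lower, so these few members are not read as a trait of their lists.

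The remaining large rises belonged to no list. Ctxn1, a small membrane protein of neurons first described in cortex, read 1445, 1738, 2513 and 1707 in reporter-high cells, against 590, 827, 577 and 832 in reporter-dim cells (1.38 ± 0.24, adjusted p = 0.0182). Speer4b read 2989, 3043, 6174 and 4387 in reporter-high cells, against 956, 1633, 1273 and 809 in reporter-dim cells (1.81 ± 0.35, adjusted p = 0.0232), and Speer8-ps1 and Speer4cos rose with it (1.06 and 0.92). Neither Ctxn1 nor the 3 Speer genes overlapped between the populations. Speer genes form a family of similar copies on chromosome 5, so these 3 signals may share transcripts and are uncertain as separate results.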

How the data were processed

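By the labels, fibroblasts of 4 mice were sorted into 4 populations. The sex-linked signals of the reporter-negative arrays labelled mouse 2 did not match this. RNA of each sample (2 ng, per the labels' protocols) was amplified and hybridized to 1 Affymetrix array. The submitters' processing notes name Affymetrix Expression Console 1.1; how signals were summarised, background-corrected and normalized was not given in the sources read. The file deposited by the authors holds a score per probe set, with mean 0 and SD 1 across the 16 arrays, as tested on the file. The design had assumed log2 values. Whole-number signals behind the deposited scores were recovered for 45141 of 45141 probe sets with numba 0.67.0, numpy 2.4.6 and pandas 2.3.3 under Python 3.11.15, by a script tested on simulated data. Whether array background had been subtracted is not known, and where it is still in the signals, differences of dim genes are too small.

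Probe sets were named by the platform table: 28898 had 1 gene, 551 several, 15588 none, and 104 were controls. Where a gene had several, the probe set with the highest mean stood for it. Of 616 listed genes 555 were measured, and the others are not analysed here. Tests used lmFit and eBayes of limma 3.58.1 under R 4.3.3 (two-sided, Benjamini-Hochberg over 17097 genes, threshold 0.05), without a block because the labels state no test. Deviations from the population mean correlated at 0.469, 0.485, 0.692 and 0.0006 between the reporter-high and reporter-dim arrays of mice 1 to 4, and at -0.618 to 0.488 between different mice (-0.132 on average), with the reporter-high array of mouse 1 nearest to the reporter-dim array of mouse 2 (0.488). The pairing itself comes from the labels, which take both populations from the same animals.

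Named genes are the sort genes, the 12 largest rises and falls among passing genes with 1 direction in 4 mice and a population mean above the median signal (predicted and small RNA genes left out), up to 4 passing members per list (2 of the largest where none passed), and the first 3 markers of each cell type. Gli1, Ptch1, Hhip, Acta2, Actg2, Myh11 and Des were given whatever their test. Other members are named by their place in a list, after their values were seen. The lists, the comparison and the rule were chosen with earlier results of these data known. Alternatives covered the block, the arrays in the fit, scaling, quantile normalization, the deposited scores, dim genes, probe set choice, the variance model and an epithelial covariate. Promoter sequences are those of RefSeq on GRCm38.p6. Figures were drawn with matplotlib 3.10.9.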

Additional observations from a re-analysis of the deposited data

Results flagged for a closer look

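In 170 groups of 4 arrays (the named genes in each population), 3 had 1 array far from the others, fewer than the 1 in 20 that chance gives. In reporter-dim cells Wnt5a of mouse 4 had a log2 signal of 11.89, with the next array at 11.55. Wnt5b of mouse 3 had 9.83 in reporter-dim cells, with the next at 10.36. Dkk3 of mouse 3 had 13.33 in reporter-dim cells, with the next at 13.68. Among 16139 probe sets that name no single gene, which entered no comparison above, 82 passed with limma (0.508%), 32 higher and 50 lower in reporter-high cells.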

How the results depend on the processing

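All 242 genes kept their direction in every alternative except the epithelial covariate, where 240 did on 16 arrays and 235 on 8. Counts moved more. With the replicate block on 16 arrays 1280 genes passed (482 higher, 798 lower, 95 list members), on the 8 arrays without block 490 (319 higher, 50 list members), and on the 8 arrays with the replicate block 2183 (1167 higher, 1016 lower, 189 list members), against 242 (83, 159 and 25). All 38 named genes that passed also passed with either block. Without 1 array or mouse the unblocked count ran from 0 to 620 (higher 0 to 237, lower 0 to 383, list members 0 to 69). It was 0 without mouse 2 (2096 at an unadjusted p under 0.05), without mouse 4 (2006) and when mouse 3 lacked its reporter-dim array (2160). With the replicate block on the 8 arrays and mouse 1, 2, 3 or 4 left out, it was 1118, 1267, 1056 or 1785 (higher 363, 504, 428 or 910; lower 755, 763, 628 or 875; list members 111, 122, 104 or 166), and 36 to 38 of the 38 named genes passed. Scaling to the hybridization controls gave 7163 (6914 higher, 249 lower, 247 list members). The deposited scores gave 0 with limma (2292 at an unadjusted p under 0.05). The epithelial covariate gave 0 on 16 arrays (1477 at an unadjusted p under 0.05) and 24 on 8 (22 higher, 2 lower, 12 list members). Elf3 and Krt19 turned positive with it (Elf3 0.034 on 16 arrays, Krt19 0.019 on 8). Both belong to the list whose mean is the covariate, which holds their differences near 0. Without the 2 reporter-negative arrays of mouse 2, 64 passed (27 higher, 37 lower, 5 list members), and with those arrays as a block of their own beside the replicate block 1875 (907 higher, 968 lower, 130 list members). Quantile normalization, the filter on dim genes, other probe set choices and the trended robust variance left the total within 1.5 times. The covariate on 8 arrays, the settings on arrays of mouse 2 and the blocked fits without 1 mouse were chosen after seeing the data. The causes were not tested.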
